A study of Mus musculus with 21 samples.

Results

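The 10 genes described here mark the extraembryonic lineages of the mouse embryo, and they were followed through inhibition of RNA polymerase I in embryonic stem cells. They were taken by symbol from the 20900 genes of the table, and all 10 were found. Cdx2, Elf5, Gata3, Tfap2c and Hand1 belong to the trophectoderm and its trophoblast descendants. Gata4, Gata6, Sox7, Sox17 and Pdgfra belong to the primitive endoderm. Poly(A) RNA was sequenced from E14 cells, an embryonic stem cell line of the 129 mouse strain grown in serum with leukaemia inhibitory factor. The control was untreated (0 h). The treatments, BMH-21 and CX-5461, are small-molecule RNA polymerase I inhibitors, each given at 1 µM for 2, 4 or 8 h. Each of the 7 groups had 3 replicates, 21 libraries in all, from a single line. The 0 h control served both inhibitors, and no untreated cells were sampled at 2, 4 or 8 h. In every comparison with control, the effect of an inhibitor and that of hours in culture thus cannot be told apart. The labels do not say whether replicates were separate cultures, so p-values measure the spread between these samples, which may be technical.

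The early embryo separates its outer trophectoderm, which forms the placenta, and then its primitive endoderm, which forms the yolk sac lining, from the pluripotent epiblast. Cdx2 and POU5F1 repress each other at the border of trophectoderm, and GATA6 and NANOG oppose each other at the border of primitive endoderm, where FGF4 signalling favours GATA6. Embryonic stem cells come from the epiblast, keep most of these genes low, and can be pushed into either lineage by forced expression of CDX2, GATA4 or GATA6.

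RefSeq promoter sequences (GRCm38.p6, the assembly also called mm10, the build that the submitters' processing notes name) were found for 4 of the 10 genes. Those of Cdx2, Gata3 and Pdgfra are shown because these genes showed the 3 kinds of rise described below. Each runs 5′ to 3′ on the gene's strand from 250 bases before to 50 bases after the start site. Capitals mark an octamer (ATGCAAAT, the motif bound by POU factors such as POU5F1) or a GATA hexamer, which is GATA with A or T before it and A or G after it. Both were searched on both strands, as were TATAAA and CCAAT. The motifs were chosen with these sequences in view.
Cdx2: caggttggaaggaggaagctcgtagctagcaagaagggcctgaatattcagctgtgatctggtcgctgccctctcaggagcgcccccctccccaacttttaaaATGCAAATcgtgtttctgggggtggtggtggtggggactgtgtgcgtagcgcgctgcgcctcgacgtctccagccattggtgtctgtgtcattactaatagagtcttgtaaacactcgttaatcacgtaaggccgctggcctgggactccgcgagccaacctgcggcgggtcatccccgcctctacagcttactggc
Gata3: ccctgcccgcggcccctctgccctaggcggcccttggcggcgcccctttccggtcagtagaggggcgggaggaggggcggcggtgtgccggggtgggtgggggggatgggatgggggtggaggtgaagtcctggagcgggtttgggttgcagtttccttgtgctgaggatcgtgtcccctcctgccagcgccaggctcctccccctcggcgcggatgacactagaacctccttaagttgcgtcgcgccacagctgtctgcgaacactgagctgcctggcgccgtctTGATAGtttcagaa
Pdgfra: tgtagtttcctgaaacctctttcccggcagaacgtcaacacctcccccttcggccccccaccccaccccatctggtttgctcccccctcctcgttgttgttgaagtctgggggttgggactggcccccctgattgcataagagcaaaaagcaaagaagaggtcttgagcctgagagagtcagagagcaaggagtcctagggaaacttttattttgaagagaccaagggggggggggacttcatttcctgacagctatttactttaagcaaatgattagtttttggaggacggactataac
The Cdx2 window (chr5:147307200-147307499, minus strand) held the octamer with its first base at position -147 from the start site, and CCAAT on the other strand at -72. Of the 32851 promoters of the same length, 1.74% held an octamer and 37.4% a CCAAT. The Gata3 window (chr2:9878551-9878850, minus strand) held TGATAG at position 37, and 29.8% of promoters held a GATA hexamer. In the Pdgfra window (chr5:75152001-75152300, plus strand) none of the 4 motifs was found, and TATAAA, in 13.6% of promoters, was in none of the 3. The Gata3 window was rich in G and C, at 67.3%, against 57.3% for Cdx2, 51% for Pdgfra and a median of 52.7%. A match describes these letters and says nothing of binding.

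The deposited log2 values gave back whole reads, which summed to 46604397 to 62812641 per library. A log2 value of 0 was worth 42 to 86 reads. A fold change against the control below is a log2 difference on this scale, with its standard error (SE) from a limma fit over 14666 genes. "Called" means a Benjamini-Hochberg adjusted p under 0.05 over all those genes. The deposited scaling shifted all genes together. Centring each library on its median took away a shift against control. In order of time this shift was -0.08, -0.15 and -0.21 in the BMH-21 groups, while the CX-5461 groups had -0.15, -0.16 and 0.22. Centred values are given beside the deposited ones for that reason. In RNA from whole cultures, more cells with a transcript and more transcript per cell cannot be told apart.

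The level per kilobase of merged exon set Tfap2c apart in control, at a log2 value of 4.32. Hand1 (0.02), Sox7 (-0.21) and Gata4 (-0.25) followed, then Cdx2 (-1.52), Gata6 (-1.58), Gata3 (-1.87), Pdgfra (-2.18) and Sox17 (-2.27), all as log2 values per kilobase. Elf5 was lowest at -3.65 per kilobase. Of the 10 genes, 9 passed the filter on low values, a log2 value above 0 in at least 3 of 21 libraries. Cdx2 and Sox17 were above 0 in all 3 libraries of 2 groups only, the 8 h groups for each. Outside those groups Cdx2 was above 0 in BMH-21 2 h replicate 2 alone (0.09). Its place among the tested genes thus rests on groups in which it was high. Sox17 was also above 0 in control replicates 1 (0.24) and 2 (0.31) and BMH-21 2 h replicate 2 (0.12), enough to pass without the 8 h groups. Counts over the 9 genes are given as a description.

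**Figure D1:**
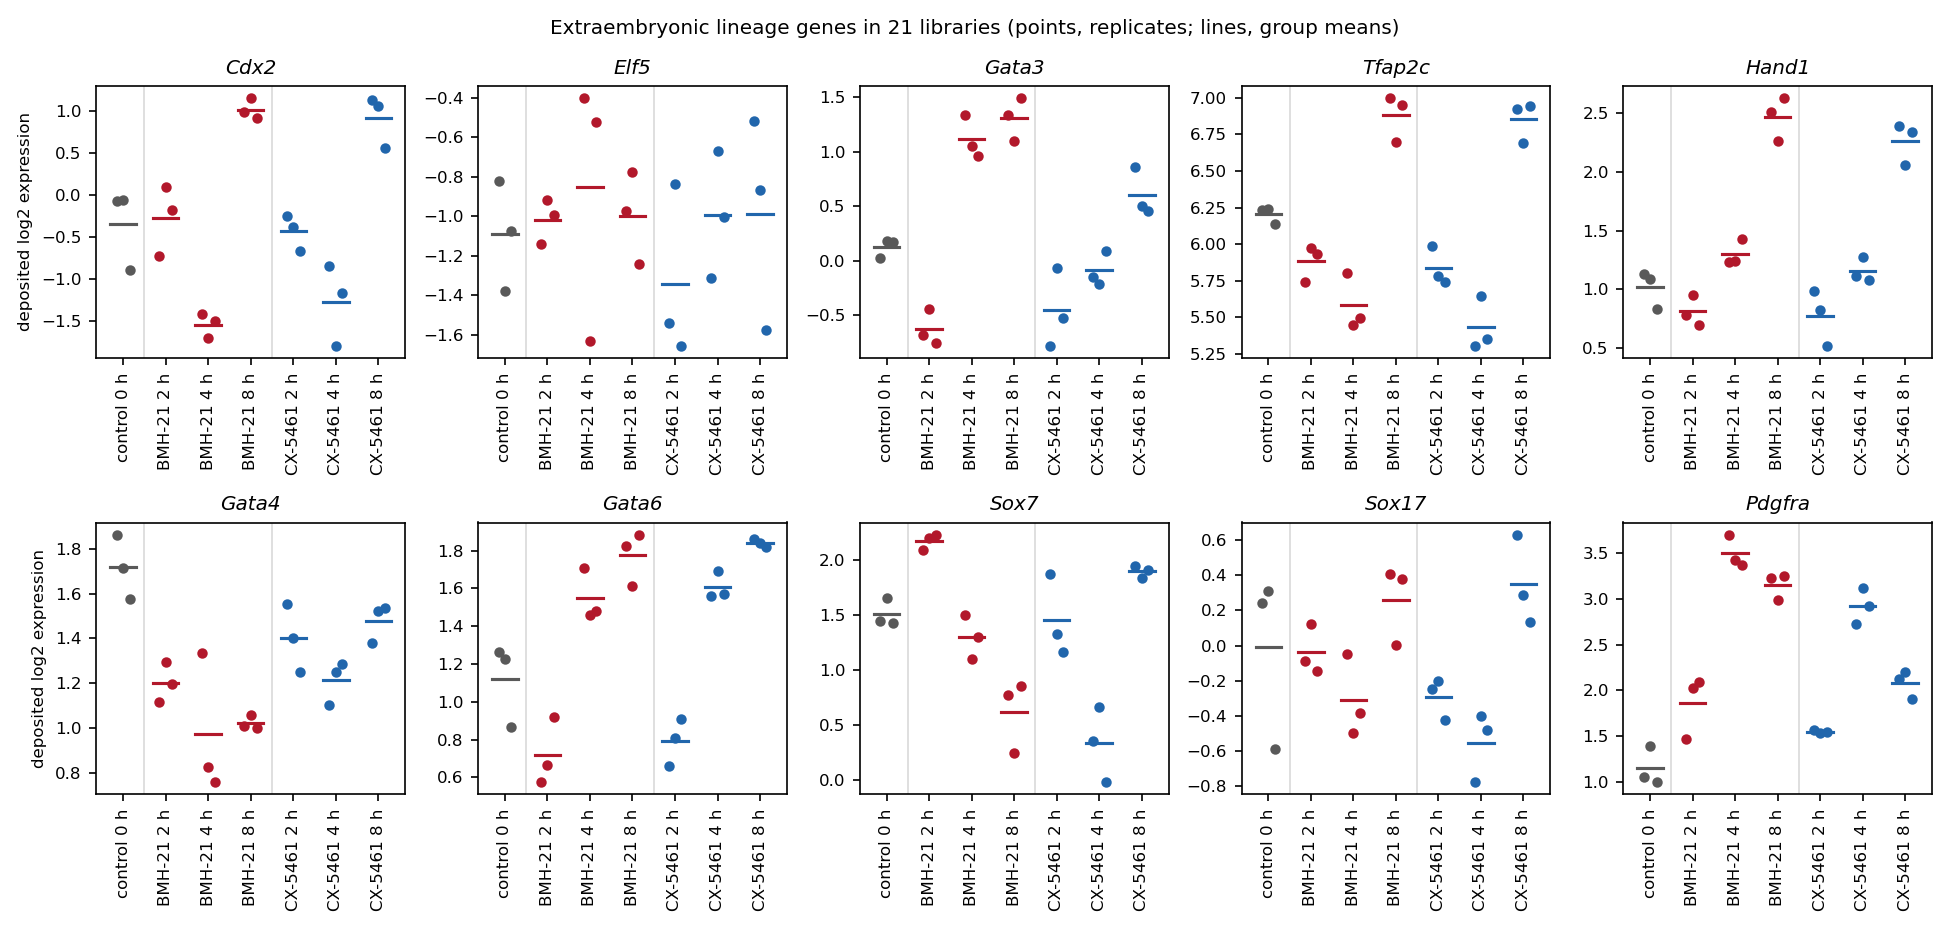
Deposited log2 expression (vertical axes, a separate scale per gene) of the 10 genes in the 21 libraries, with 3 points per group and a line at the group mean. Cdx2, Tfap2c and Hand1 stand highest in both 8 h groups, Pdgfra at 4 h and 8 h of BMH-21, and Elf5 shows no group apart from the others.

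Among the trophectoderm genes, Cdx2, Tfap2c and Hand1 were higher than control after 8 h of either inhibitor, and Cdx2 and Tfap2c had first fallen at 4 h. Gata3 was called higher at 4 h and 8 h of BMH-21, and Elf5 held at most 50 reads in any library. Among the primitive endoderm genes, Pdgfra rose at every time with both inhibitors, Gata6 rose from 4 h, Gata4 fell with BMH-21, and Sox7 fell from 4 h to 8 h of BMH-21 but rose over the same interval of CX-5461. After 2 h of BMH-21, 5 of the 9 tested genes were called, 2 higher and 3 lower. Of all genes, 19.7% were called there, 8.48% higher and 11.2% lower. The count rose to 6 at 4 h, 3 in each direction, where 67% of all genes were called (22.1% higher, 44.9% lower). It was 8 at 8 h, 6 higher and 2 lower, where 81.5% of all genes were called (24.5% higher, 56.9% lower). The CX-5461 count was 3 at 2 h, 1 higher and 2 lower, beside 27.9% of all genes (7.45% higher, 20.5% lower). Leaving out any library of those 2 groups took that count to between 0 and 2, with 0 reached without CX-5461 2 h replicate 3. By 4 h it was 7, 2 higher and 5 lower, beside 70.9% (19.8% higher, 51.2% lower). At 8 h all 5 called genes were higher, beside 49.4% (35.1% higher, 14.3% lower). Centring made the counts 6, 7 and 9 for BMH-21, beside 36%, 73.6% and 84.6% of all genes. The centred CX-5461 counts were 2, 7 and 6, beside 33.6%, 74.2% and 74%. The 9 genes had a median change of 0.68 at 8 h of BMH-21 and 0.65 at 8 h of CX-5461, against -0.40 and 0.11 over all genes.

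**Figure D2:**
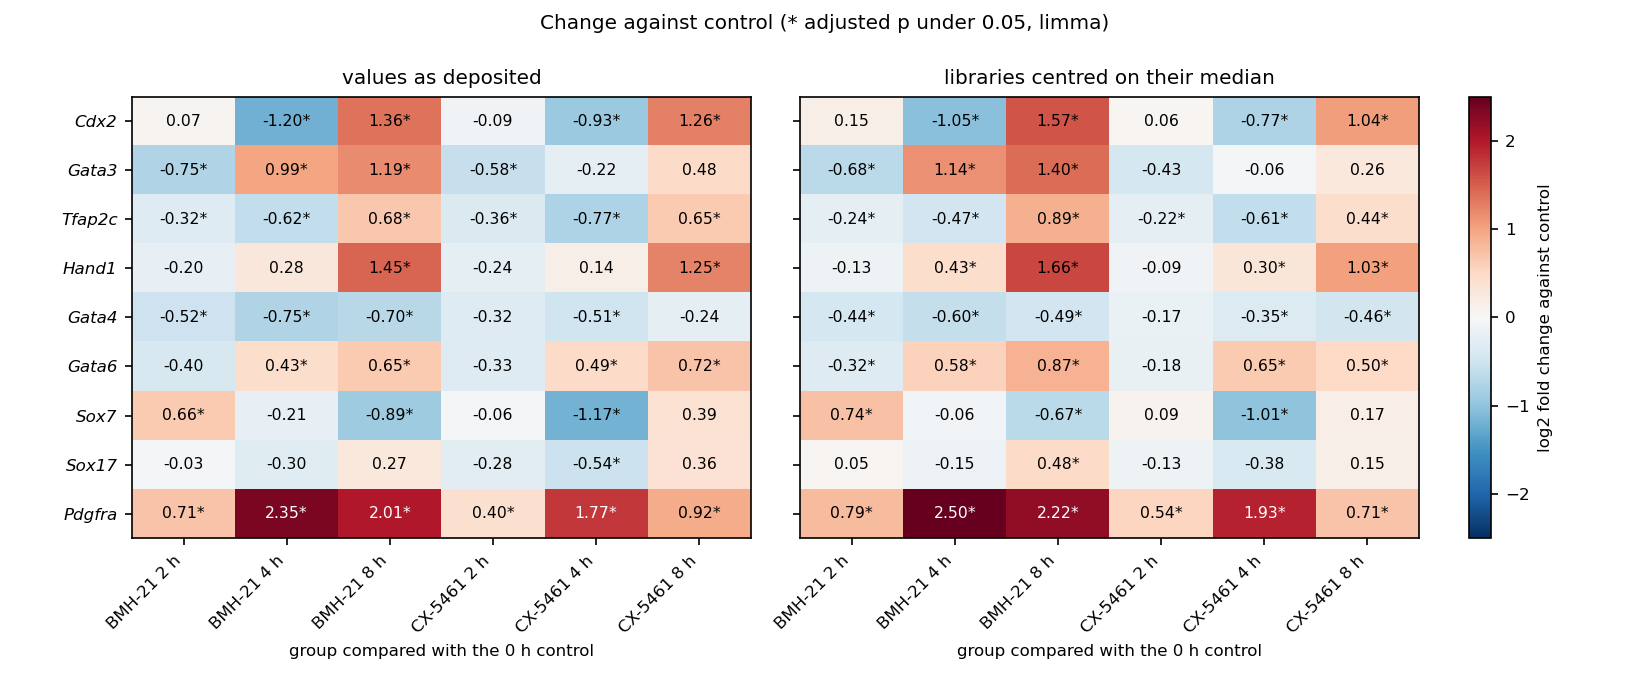
Log2 fold change against the 0 h control (colour and printed value) of the 9 tested genes in the 6 treated groups, as deposited (left) and after centring (right), with a star for a limma adjusted p under 0.05. Cdx2, Tfap2c and Hand1 are red in both 8 h columns of both panels, from 0.65 to 1.45 as deposited, and Pdgfra is red throughout, up to 2.35 at 4 h of BMH-21.

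Cdx2 encodes the caudal-type homeodomain factor that specifies trophectoderm (chromosome 5, 147300805 to 147307270, minus strand, 3 exons). Its log2 values were -0.07, -0.06 and -0.89 in the control libraries, from 44, 43 and 25 reads. They were -1.42, -1.71 and -1.504 after 4 h of BMH-21 (17 to 19 reads) and 0.98, 1.15 and 0.92 after 8 h (118 to 191 reads). With CX-5461 they were -0.85, -1.80 and -1.17 at 4 h and 1.13, 1.06 and 0.55 at 8 h. All 8 h libraries thus lay above every control and every 4 h library, while at 4 h of CX-5461 the highest library overlapped the lowest control. Against control, Cdx2 changed by -1.20 at 4 h of BMH-21 (SE 0.27, limma adjusted p 4e-05) and 1.36 at 8 h (limma adjusted p 2.4e-06). The CX-5461 changes were -0.93 at 4 h (limma adjusted p 0.0014) and 1.26 at 8 h (limma adjusted p 2.9e-05). At 2 h Cdx2 was not called, with changes of 0.07 and -0.09. Centred, the BMH-21 changes were -1.05 at 4 h and 1.57 at 8 h, the CX-5461 changes -0.77 and 1.04, and all 4 were called. From 4 h to 8 h Cdx2 rose by 2.56 under BMH-21 and by 2.19 under CX-5461, the widest move of the 9 genes in that interval. Cdx2 passed the filter only through the 8 h groups, in which it was high. Its calls at 8 h and from 4 h to 8 h are thus given as a description.

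Tfap2c encodes the AP-2 gamma factor, which acts in trophoblast and also in germ cells (chromosome 2, 172549593 to 172558622, plus strand). It was the most abundant of the 10, with 2255 to 8959 reads per library. Its log2 values were 6.23, 6.24 and 6.14 in control, 5.80, 5.45 and 5.50 at 4 h of BMH-21 and 6.996, 6.70 and 6.95 at 8 h. The CX-5461 libraries gave 5.31, 5.65 and 5.36 at 4 h and 6.92, 6.69 and 6.95 at 8 h. The 3 levels did not overlap with either inhibitor: 4 h was lowest and 8 h highest. Under BMH-21 it changed at 2, 4 and 8 h by -0.32, -0.62 and 0.68 (SE 0.11, limma adjusted p 0.027, 4.1e-07 and 2.5e-08). Those of CX-5461 were -0.36, -0.77 and 0.65 (limma adjusted p 0.0086, 1.1e-09 and 2.1e-07). All 6 were also called after centring, the BMH-21 values then being -0.24, -0.47 and 0.89 and the CX-5461 values -0.22, -0.61 and 0.44. With median-ratio factors the 8 h BMH-21 value was 1.03. The 2 h fall was the least firm. With BMH-21 it lost the threshold without BMH-21 2 h replicate 1 (-0.25), control replicate 1 (-0.31) or control replicate 2 (-0.30), and with CX-5461 without CX-5461 2 h replicate 2 (-0.34) or 3 (-0.32).

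Hand1 encodes a basic helix-loop-helix factor of trophoblast giant cells that is also expressed in mesoderm and heart (chromosome 11, 57828705 to 57832818, minus strand). Its log2 values were 1.13, 1.09 and 0.83 in control, from 84 to 102 reads. At 8 h they were 2.51, 2.27 and 2.63 with BMH-21 (341 to 415 reads) and 2.39, 2.06 and 2.34 with CX-5461 (216 to 259 reads). Every 8 h library lay above every library of the other 5 groups. Hand1 rose by 1.45 at 8 h of BMH-21 (SE 0.17, limma adjusted p 4e-14) and by 1.25 at 8 h of CX-5461 (limma adjusted p 7.6e-11), and by 1.66 and 1.03 after centring. Unlike Cdx2 and Tfap2c, Hand1 had no called fall at 4 h. Its 4 h changes of 0.28 and 0.14 were not called as deposited and were called after centring, at 0.43 for BMH-21 (limma adjusted p 0.002) and at 0.30 after CX-5461 (limma adjusted p 0.026).

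Gata3 encodes a zinc finger factor that acts beside Cdx2 in trophectoderm and also in T cells and other tissues (chromosome 2, 9857078 to 9890034, minus strand). The control libraries were at 0.02, 0.18 and 0.18, from 47 to 53 reads. BMH-21 took the log2 values to -0.68, -0.44 and -0.76 at 2 h, 1.34, 1.05 and 0.96 at 4 h and 1.34, 1.10 and 1.49 at 8 h. CX-5461 gave -0.78, -0.06 and -0.52 at 2 h, -0.15, -0.21 and 0.09 at 4 h and 0.86, 0.50 and 0.46 at 8 h. With BMH-21 the 2 h libraries lay below every control and the 4 h and 8 h libraries above every control, while the 4 h libraries of CX-5461 overlapped control. The BMH-21 changes at 2, 4 and 8 h were -0.75, 0.99 and 1.19 (SE 0.22, limma adjusted p 0.0071, 4e-05 and 6.6e-07), and -0.68, 1.14 and 1.40 after centring, all called. Under CX-5461 Gata3 was at -0.58 after 2 h (limma adjusted p 0.037), -0.22 after 4 h (limma adjusted p 0.38) and 0.48 after 8 h (limma adjusted p 0.061). The 2 h call with CX-5461 was lost after centring (-0.43). It was also lost without control replicate 1 (-0.63), 2 (-0.55) or 3 (-0.56) and without CX-5461 2 h replicate 1 (-0.42) or 3 (-0.55). The 8 h CX-5461 change was 0.26 after centring, and it was called when only those 2 groups were fitted (limma adjusted p 0.036). The genes 4930412O13Rik and 9230102O04Rik, which overlap the locus, held 0 to 9 reads and 0 to 2 reads per library.

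Elf5, an ETS-family factor that maintains trophoblast stem cells, was not tested with the rest because no library reached a log2 value of 0. It held 14 to 50 reads per library, and its group means ran from -1.34 at 2 h of CX-5461 to -0.85 at 4 h of BMH-21, with ranges that overlapped between all neighbours in that order. Its SD within a group reached 0.68 (n = 3). With the filter removed its changes against control lay between -0.25 and 0.24 and none was called, the smallest limma adjusted p being 0.58. The gene is known to be methylated at its promoter in embryonic stem cells, a mark these data do not measure.

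Gata6 encodes a zinc finger factor at the top of the primitive endoderm programme (chromosome 18). Its log2 values were 1.26, 1.23 and 0.87 in control, from 86 to 112 reads. They were 1.71, 1.46 and 1.48 at 4 h and 1.82, 1.61 and 1.88 at 8 h of BMH-21, and 1.56, 1.69 and 1.57 at 4 h and 1.86, 1.84 and 1.82 at 8 h of CX-5461. Every library at 4 h and 8 h lay above every control. Gata6 rose by 0.43 at 4 h and 0.65 at 8 h of BMH-21 (SE 0.17, limma adjusted p 0.018 and 0.00021). Its rises at 4 h and 8 h of CX-5461 were 0.49 and 0.72 (limma adjusted p 0.0067 and 0.00012). All 4 were called after centring, at 0.58, 0.87, 0.65 and 0.50 in that order. With median-ratio factors the 8 h BMH-21 value was 1.01. Control replicate 3 was the lowest control, and without it the 4 h calls were lost, at 0.30 and 0.36. The 4 h call with BMH-21 was also lost without BMH-21 4 h replicate 1 (0.35). At 2 h the changes of -0.40 and -0.33 were not called, but without control replicate 3 both were, at -0.53 and -0.45. The 2 h BMH-21 change was called after centring too (-0.32, limma adjusted p 0.03). Reads of 1010001N08Rik, on the opposite strand of this locus, numbered 9 to 31 per library, and whether counting used strand is not given in the sources used here.

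Gata4, a related zinc finger factor that follows Gata6 in primitive endoderm and acts in heart (chromosome 14, 63198922 to 63271692, minus strand), moved the other way. Its control libraries were at 1.86, 1.72 and 1.58, from 141 to 170 reads. BMH-21 gave 1.12, 1.296 and 1.20 at 2 h, 1.34, 0.83 and 0.76 at 4 h and 1.01, 1.06 and 1.00 at 8 h. CX-5461 gave 1.55, 1.40 and 1.25 at 2 h, 1.10, 1.25 and 1.29 at 4 h and 1.38, 1.52 and 1.54 at 8 h. Control was the highest group, and no treated library reached its lowest value. The BMH-21 changes at 2, 4 and 8 h were -0.52, -0.75 and -0.70 (SE 0.17, limma adjusted p 0.018, 5.4e-05 and 0.0001), all called after centring at -0.44, -0.60 and -0.49. The 2 h call was lost without BMH-21 2 h replicate 1 (-0.47) or 3 (-0.51) and without control replicate 1 (-0.45) or 2 (-0.52). The CX-5461 changes were -0.32, -0.51 and -0.24, of which the 4 h value was called (limma adjusted p 0.0057). After centring the 4 h value was -0.35, and the 8 h value was called as well, at -0.46 (limma adjusted p 0.0011). With median-ratio size factors in place of the deposited ones the 4 h value was -0.26 (limma adjusted p 0.053) and the 8 h BMH-21 value -0.34.

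Sox7 encodes a SOX factor of primitive and parietal endoderm and of endothelium (chromosome 14, 63943673 to 63950732, plus strand, 2 exons). The control libraries were at 1.44, 1.66 and 1.43, from 127 to 143 reads. BMH-21 gave 2.09, 2.20 and 2.23 at 2 h, 1.497, 1.10 and 1.303 at 4 h and 0.77, 0.25 and 0.85 at 8 h. CX-5461 gave 1.88, 1.33 and 1.16 at 2 h, 0.36, 0.67 and -0.02 at 4 h and 1.95, 1.83 and 1.91 at 8 h. With BMH-21 the 3 times did not overlap and went down from 2 h to 8 h, whereas with CX-5461 the 4 h libraries were the lowest and the 8 h libraries lay above every control. The BMH-21 changes were 0.66, -0.21 and -0.89 (SE 0.18, limma adjusted p 0.0025, 0.29 and 2.9e-06). Those of CX-5461 were -0.06, -1.17 and 0.39 (limma adjusted p 0.82, 3.6e-09 and 0.058). The calls were the same after centring, at 0.74 and -0.67 for 2 h and 8 h of BMH-21 and -1.01 for 4 h of CX-5461. The 8 h CX-5461 value was 0.17 after centring, and as deposited it was called without control replicate 2 (0.46) or when only those 2 groups were fitted. With median-ratio factors the 8 h BMH-21 value was -0.53.

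Sox17, a SOX factor of primitive and definitive endoderm (chromosome 1, 4490931 to 4497354, minus strand), had few reads, 31 to 86 per library. Its control libraries spread widely, at 0.24, 0.31 and -0.59, from 55, 56 and 31 reads. At 4 h of CX-5461 the values were -0.78, -0.40 and -0.48, and at 8 h 0.63, 0.29 and 0.13. With BMH-21 they were -0.05, -0.50 and -0.38 at 4 h and 0.41, 0.00 and 0.38 at 8 h. All 4 groups overlapped control. The sole call against control was -0.54 at 4 h of CX-5461 (SE 0.25, limma adjusted p 0.043), and it was lost after centring (-0.38). It was lost too without control replicate 1 (-0.41) or 2 (-0.38) and without CX-5461 4 h replicate 1 (-0.43) or 3 (-0.58). Without control replicate 3 it was -0.83, and the 4 h BMH-21 value was then called at -0.59. The 8 h BMH-21 change of 0.27 was not called as deposited and was called after centring, at 0.48 (limma adjusted p 0.02).

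Pdgfra encodes the alpha receptor for platelet-derived growth factor, a surface marker of primitive endoderm that mesoderm and fibroblasts also carry (chromosome 5, 75152292 to 75198215, plus strand). Its change of 2.35 at 4 h of BMH-21 was the largest of the 9 genes against control. Its log2 values were 1.06, 1.39 and 1.00 in control, from 94 to 119 reads. BMH-21 gave 1.46, 2.03 and 2.09 at 2 h, 3.70, 3.43 and 3.36 at 4 h (569 to 615 reads) and 3.22, 2.99 and 3.25 at 8 h. CX-5461 gave 1.56, 1.53 and 1.54 at 2 h, 2.72, 3.12 and 2.92 at 4 h and 2.12, 2.20 and 1.90 at 8 h. Every treated library lay above every control, and the order of the groups was control, CX-5461 2 h, BMH-21 2 h, CX-5461 8 h, CX-5461 4 h, BMH-21 8 h and BMH-21 4 h. In that order the 2 h groups overlapped each other, BMH-21 2 h overlapped CX-5461 8 h, and CX-5461 4 h overlapped BMH-21 8 h. Pdgfra rose by 0.71, 2.35 and 2.01 at 2, 4 and 8 h of BMH-21 (SE 0.14, limma adjusted p 4.3e-05, 2.1e-31 and 2.7e-26). The CX-5461 rises were 0.40, 1.77 and 0.92 (limma adjusted p 0.03, 4.4e-22 and 1.6e-08). Centred, the BMH-21 rises were 0.79, 2.497 and 2.22 and the CX-5461 rises 0.54, 1.93 and 0.71, all called. The 2 h CX-5461 call was lost without control replicate 1 (0.35) or 3 (0.32) and without CX-5461 2 h replicate 1 (0.39), 2 (0.40) or 3 (0.40). Markers of fibroblasts were followed beside it as a list of 11, of which 6 had a mean log2 value under 0 in every group. The summed level of the list, on the linear scale of the deposited values, was 35.7 to 40.0 in control, 47.7 to 58.5 at 4 h of BMH-21 and 38.3 to 41.7 at 4 h of CX-5461. By 8 h the BMH-21 libraries summed to 44.8 to 52.8 and the CX-5461 libraries to 52.7 to 53.4. Of its 5 tested genes, 1 was called higher and 2 lower at 4 h of BMH-21, where 22.1% and 44.9% of all genes were. At 4 h of CX-5461 it was 2 higher and 1 lower, where 19.8% and 51.2% of all genes were. At 8 h of CX-5461 it was 4 higher and 0 lower, where 35.1% and 14.3% of all genes were. After centring the 8 h count was 3 higher and 1 lower, where 74% of all genes were called in either direction. Named after their values were seen, Col1a1 and Tcf21 of this list had higher values than control where Pdgfra did, at 4 h of both inhibitors. Col1a1, a chain of type I collagen, had a mean log2 value of 3.15 in control, 4.97 and 5.01 at 4 h and 8 h of BMH-21, and 4.18 and 4.38 at those times of CX-5461. Tcf21, a factor of mesenchyme, held 0 to 1 reads per control library, 20 to 36 at 4 h of BMH-21 and 4 to 7 at 4 h of CX-5461. Thy1 of the list did not follow Pdgfra. It had a mean log2 value of 4.48 in control, and 3.81 and 3.75 at 4 h of BMH-21 and CX-5461. Pdgfrb followed Pdgfra in part. It was at 1.66 in control, 1.64 at 4 h of BMH-21 and 2.08 at 4 h of CX-5461, the last above every control library. At 8 h Pdgfrb was at 1.96 with BMH-21 and 2.67 with CX-5461. The part of such cells in the Pdgfra result was not tested.

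The inhibitors were set against each other at the same dose and time, which asks whether these genes responded differently to them. At 2 h, 1 of the 9 genes was called, where 3.99% of all genes were (2.47% higher with BMH-21, 1.52% lower; 15.4% in all after centring). Sox7 was higher with BMH-21 by 0.72 (SE 0.18, limma adjusted p 0.0046), and this was lost with each gene's own variance and without CX-5461 2 h replicate 2 (0.65) or 3 (0.57). Pdgfra was called at 2 h without BMH-21 2 h replicate 1, at 0.51. At 4 h 3 genes were called, all higher with BMH-21, against 17.8% of all genes in either direction (9.35% higher, 8.49% lower), and 4 after centring, against 45.8%. They were Gata3 by 1.21 (limma adjusted p 1e-05), Sox7 by 0.96 (limma adjusted p 9.9e-06) and Pdgfra by 0.58 (limma adjusted p 0.0016). In each of these the 3 libraries of BMH-21 lay above the 3 of CX-5461.

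At 8 h 4 genes were called, where 79.2% of all genes were, 12% higher and 67.2% lower with BMH-21. After centring it was 6 genes and 71.7%. Pdgfra was higher with BMH-21 by 1.08 (limma adjusted p 4.9e-11) and Gata3 by 0.71 (limma adjusted p 0.0026), while Sox7 was lower by -1.27 (limma adjusted p 1.9e-10) and Gata4 by -0.46 (limma adjusted p 0.01). Centring took off a shift of -0.43 common to all genes. The differences were then 1.51 for Pdgfra, 1.13 for Gata3 and -0.84 for Sox7, all called, and -0.03 for Gata4 (limma adjusted p 0.82). Tfap2c, Hand1 and Gata6, at 0.03, 0.20 and -0.07 as deposited, were called higher with BMH-21 after centring, at 0.45, 0.63 and 0.36. For Cdx2 the 8 h difference was 0.10 with an interval from -0.43 to 0.63, and 0.53 after centring (limma adjusted p 0.076). The 95% interval for Tfap2c ran from -0.19 to 0.25 and for Hand1 from -0.12 to 0.53. Of the 5 genes called higher at 8 h of both inhibitors, Pdgfra differed between them under both scalings, Tfap2c, Hand1 and Gata6 were called after centring and not as deposited, and Cdx2 under neither.

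Between 4 h and 8 h, Cdx2, Tfap2c, Hand1 and Sox17 rose with both inhibitors. In this interval of BMH-21, 6 of 9 genes were called, 4 higher and 2 lower, where 56.4% of all genes were (18.6% higher, 37.8% lower). For CX-5461 the count was 7, 6 higher and 1 lower, where 63.7% were (58.8% higher, 4.85% lower). Centring gave 7 and 6 genes, beside 70.5% and 57.8% of all genes. Tfap2c rose by 1.299 under BMH-21 (SE 0.11, limma adjusted p 5.8e-20) and by 1.42 under CX-5461 (limma adjusted p 4.5e-22). Hand1 rose by 1.17 and 1.11 (limma adjusted p 1.2e-09 and 7.4e-09). After centring the rises were 1.36 and 1.04 for Tfap2c, 1.23 and 0.73 for Hand1, and 2.62 and 1.81 for Cdx2. Sox17 rose by 0.57 under BMH-21 (limma adjusted p 0.041) and by 0.90 under CX-5461 (limma adjusted p 0.001), and by 0.63 and 0.53 after centring. The BMH-21 call of Sox17 was lost without 4 h replicate 2 (0.47) or 3 (0.53) and without 8 h replicate 1 (0.50) or 3 (0.51). Gata3 rose by 0.70 with CX-5461 (limma adjusted p 0.0044), which centring took to 0.32 and out of the calls. Pdgfra fell in the interval, by 0.34 under BMH-21 (limma adjusted p 0.035) and by 0.85 under CX-5461 (limma adjusted p 2.5e-07), and its BMH-21 call was lost without 4 h replicate 1 (-0.24) or 8 h replicate 2 (-0.26). Median-ratio factors put that BMH-21 value at -0.17, also short of the threshold.

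The change from 4 h to 8 h was compared between the inhibitors with an interaction term. Of the 9 genes, 2 were called, where 69.4% of all genes were (7.98% higher, 61.4% lower). Sox7 changed by -0.67 under BMH-21 and by 1.56 under CX-5461, a difference of -2.23 (SE 0.25, limma adjusted p 1.7e-13), and -1.80 after centring. Pdgfra fell less with BMH-21, a difference of 0.50 (SE 0.20, limma adjusted p 0.023) and 0.94 after centring. That call was lost as deposited without BMH-21 4 h replicate 2 (0.47) or 3 (0.44), CX-5461 4 h replicate 2 (0.41) or CX-5461 8 h replicate 3 (0.42). After centring 5 genes were called, beside 60.2% of all genes, the other three being Tfap2c (0.32), Hand1 (0.49) and Gata6 (0.43), each with the higher change under BMH-21.

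**Figure D3:**
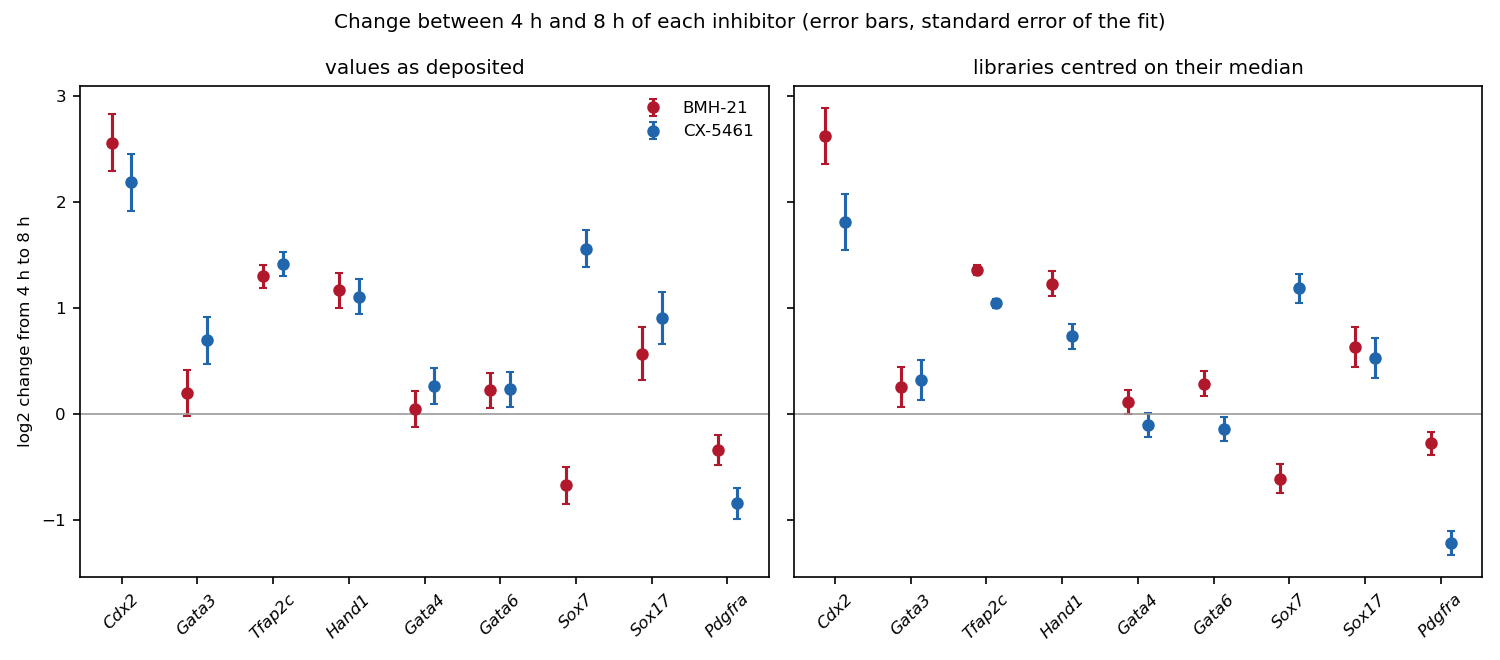
Log2 change from 4 h to 8 h (vertical axis) of the 9 tested genes for BMH-21 (red) and CX-5461 (blue), as deposited (left) and after centring (right); points are fitted differences and bars their standard error. Cdx2, Tfap2c and Hand1 lie above 0 with both inhibitors, and Sox7 lies at -0.67 in red and 1.56 in blue.

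Some of the 9 genes moved alike over the 7 group means, after centring. Pearson's r was 0.95 for Cdx2 and Tfap2c, 0.94 for Tfap2c and Sox17, and 0.90 for Cdx2 and Sox17. It was 0.80 for Tfap2c and Hand1, 0.83 for Gata3 and Gata6 and 0.76 for Gata6 and Pdgfra. Gata4 had an r of -0.53 with Gata6 and -0.76 with Pdgfra, and Sox7 -0.77 with Gata6. Cdx2 passed the filter only through the 8 h groups, which favours a peak there. These are 7 points that share libraries, given as a description.

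Among the other tested genes whose group means spanned at least 1 log2 unit (5300 or 5301 genes), those most like each gene were named by r over the same 7 means. For Cdx2 they were Sorcs2 (0.98), Bach1 (0.97) and Gm5039 (0.97), and for Tfap2c Gm5039 (0.99), Fmn2 (0.98) and Plin2 (0.98). For Hand1 they were Baalc, Ndufa4l2 and Nell2 (0.99 or more each), for Gata3 Stxbp5l (0.99), P3h3 (0.97) and Igsf3 (0.96), and for Gata6 Sec31b, Scn11a and Shisa6 (0.99 each). For Pdgfra they were Tgfb2 (0.996), Fbxo40 (0.99) and Rgs3 (0.99), for Sox7 Runx3 (0.96), Tdrp (0.94) and Efhb (0.93), for Sox17 Tgfbi (0.98), Shb (0.96) and Tchh (0.95), and for Gata4 Nol4l, Parp6 and Bbs12 (0.94 each). Gm5039 was the sole gene named for 2 of the 9, Cdx2 and Tfap2c.

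Other trophoblast genes were followed as a list of 26, of which 25 were in the table and 22 were tested. At 8 h of BMH-21, 7 were called higher and 9 lower, with a median change of 0.01. The CX-5461 split at 8 h was 15 higher and 2 lower, with a median of 0.48. Over all genes 24.5% were higher and 56.9% lower in the former (median -0.40), and 35.1% and 14.3% in the latter (median 0.11). After centring these became 11 higher and 7 lower (median 0.23) and 12 higher and 4 lower (median 0.27), against medians over all genes of -0.19 and -0.11. The centred shares of all genes called in either direction were 84.6% and 74%. The largest rises with both inhibitors were those of Krt7, a keratin of simple epithelia, and Sct, which encodes the hormone secretin. Krt7 went from 0.85 to 1.14 in the control libraries to 5.55 to 5.76 at 8 h of BMH-21, a log2 fold change of 4.67 (SE 0.12), and it changed by 3.503 with CX-5461. Sct rose by 2.69 and 2.53. The largest falls with both were those of Tspan8, a tetraspanin (-2.51 and -0.89), and of Esx1, a placental homeobox gene (-1.36 and -0.65). The summed level of the list was 300.4 to 329 in control, 399 to 473 at 8 h of BMH-21 and 491 to 503 at 8 h of CX-5461. This sum is weighted to abundant genes, and it rose at 8 h of BMH-21 although 9 genes were called lower there. Named after their values were seen, Cdh3, Krt19 and Krt7 had control means of 5.17, 4.17 and 0.99. Their means were 6.53, 5.22 and 5.66 at 8 h of BMH-21, and 6.53, 5.81 and 4.49 at 8 h of CX-5461.

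Other primitive endoderm genes were followed as a list of 27, of which 20 were tested. At 8 h of BMH-21, 7 were called higher and 8 lower (median 0.06). The CX-5461 split was 8 higher and 2 lower (median 0.26). Over all genes the shares were 24.5% higher and 56.9% lower in the former (median -0.40) and 35.1% and 14.3% in the latter (median 0.11). After centring the counts were 12 higher and 7 lower (median 0.28), and 6 higher and 8 lower (median 0.04). Of all genes, 84.6% and 74% were then called in either direction, with medians of -0.19 and -0.11. The list thus went both ways with either inhibitor. Apoa1, an apolipoprotein of visceral endoderm and liver, rose by 3.87 under BMH-21 and 2.39 under CX-5461. It held 1 to 13 reads per control library, so its fold is imprecise. Its log2 value was above 0 only in libraries at 4 h and 8 h of BMH-21 (highest 0.24 and 0.95). It thus passed the filter only through groups in which it was high, and its calls are given as a description. Plat, the tissue plasminogen activator, rose by 2.55 and 1.57. Lama1, a laminin chain of basement membrane, changed by -1.25 and -0.32, and Lrp2, the endocytic receptor megalin, by -1.23 and -0.68. The summed level of the list overlapped between control (1745 to 2004) and both 8 h groups (1449 to 1802 and 1849 to 1949). This sum is weighted to abundant genes such as Lamc1, Nid2, Sparc and Apoe, with control means of 8.67, 8.57, 8.47 and 8.18. In control, 10 of the 27 genes had a mean log2 value under 0.

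**Figure D4:**
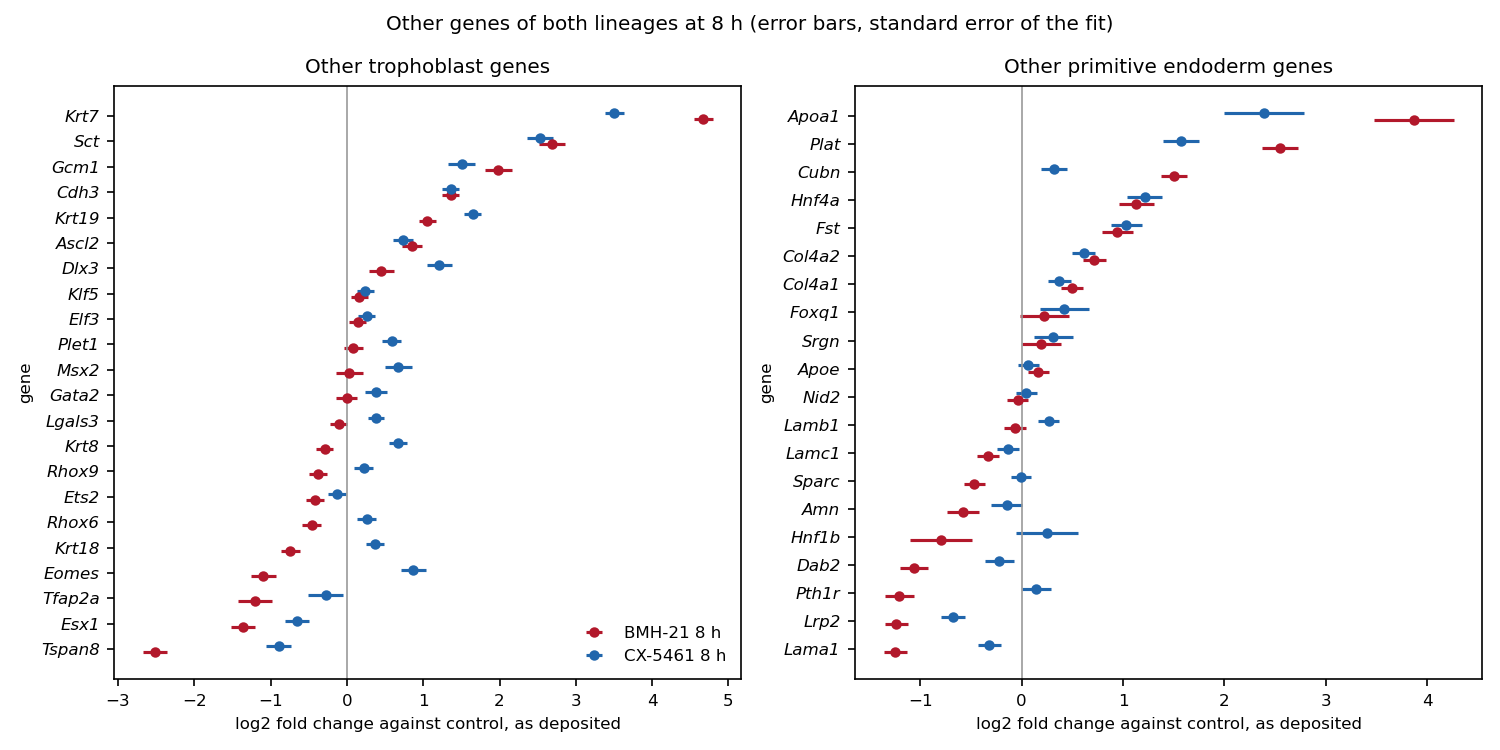
Log2 fold change against control at 8 h (horizontal axis, as deposited, bars show the standard error) of the 22 tested trophoblast genes (left) and 20 tested primitive endoderm genes (right) outside the 10, with BMH-21 in red and CX-5461 in blue. Krt7 and Sct lie farthest right on the left panel, Apoa1 and Plat on the right panel, and both lists hold genes on either side of 0.

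The 15 genes that act upstream of these factors were all tested. At 8 h of BMH-21, 12 were called lower and 2 higher (median -0.50). For CX-5461 it was 4 lower and 3 higher (median -0.06). Of all genes, 56.9% were lower and 24.5% higher at 8 h of BMH-21 (median -0.40), and 14.3% lower and 35.1% higher at 8 h of CX-5461 (median 0.11). Centring gave 12 lower and 3 higher, and 9 lower and 3 higher, beside 84.6% and 74% of all genes called in either direction. Tead4, the DNA-binding partner of YAP1 that switches on Cdx2 and Gata3 in trophectoderm, was at -1.93 at 4 h and -1.90 at 8 h of BMH-21 (limma adjusted p 2.5e-26 and 4.5e-26). In CX-5461 it was at -1.41 at 4 h and 0.30 at 8 h (limma adjusted p 2.6e-17 and 0.061). It was thus lower than control at 8 h of BMH-21, where Cdx2 and Gata3 were higher, and lower at 4 h of both inhibitors. There Cdx2 was lower as well, while Gata3 was higher with BMH-21 (0.99) and not called with CX-5461 (-0.22). The difference between inhibitors at 8 h was -2.20 as deposited (limma adjusted p 4.8e-30). After centring, the 8 h means of Tead4 were 1.83 with BMH-21 and 3.60 with CX-5461. Of its partners and regulators in the Hippo pathway at 8 h of BMH-21, Yap1 changed by -0.37, Wwtr1 by -0.45, Lats1 by -0.40, Amot by -0.91 and Nf2 by -0.58. Amotl2 rose by 0.33, and Lats2 was at 0.14, not called as deposited and called at 0.35 after centring. With CX-5461 at 8 h the same 7 genes were at -0.06, 0.12, -0.23, -0.21, -0.18, 0.67 and 0.54, and of these Amotl2 and Lats2 were called. Centring turned the CX-5461 value of Wwtr1 to -0.09, and with it Yap1, Lats1, Amot and Nf2 were called lower.

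On the side of primitive endoderm, Fgf4, the ligand that embryonic stem cells secrete, fell at every time. The BMH-21 values in order of time were -0.73, -1.70 and -1.94, and the CX-5461 ones -0.67, -0.76 and -0.36, with a largest limma adjusted p of 0.0026. Fgfr2 changed by -1.31 and -1.12 at 4 h of BMH-21 and CX-5461 and by -0.47 and 0.09 at 8 h, the last not called. Fgfr1 was higher at 8 h by 0.26 and 0.39, and Grb2, an adaptor of the receptors, was at -0.50 and 0.02. After centring the 8 h CX-5461 values of Fgfr2 and Grb2 turned to -0.12 and -0.19. Among the pluripotency factors of this list, Pou5f1 changed by -0.94 and -0.35 at 8 h of BMH-21 and CX-5461, Nanog by -2.13 and -0.26 and Sall4 by -1.45 and -0.31. Centred means in control, 8 h of BMH-21 and 8 h of CX-5461 were 10.58, 9.86 and 10.02 for Pou5f1. In the same order they were 8.92, 7.01 and 8.45 for Nanog, 8.66, 7.42 and 8.14 for Sall4, and 7.74, 6.01 and 7.16 for Fgf4. As deposited, the inhibitors differed at 8 h by -1.87 for Nanog and -1.58 for Fgf4 (limma adjusted p 1.9e-34 and 2.3e-27). For Gata6 the difference was -0.07 as deposited, with an interval from -0.39 to 0.26, and its sign depended on the scaling: it was 0.36 after centring (limma adjusted p 0.0074) and 0.41 with median-ratio factors (limma adjusted p 0.0032).

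Markers that define the cells were checked as lists. The 9 genes that mark embryonic stem cells were above a log2 value of 0 in every group, with a summed level of 6178 to 7063 in control. The sum was 3542 to 4155 at 4 h and 2959 to 3135 at 8 h of BMH-21. Under CX-5461 it was 3607 to 4292 at 4 h and 5626 to 6038 at 8 h. All 9 were called lower at 4 h of BMH-21, 4 h of CX-5461 and 8 h of BMH-21. Of all genes, 44.9%, 51.2% and 56.9% were lower there. At 8 h of CX-5461, 5 were lower and 1 higher, where 14.3% and 35.1% of all genes were. In the same order of groups, centring made the lower counts 7, 9, 9 and 7. Of 14 genes of mesoderm and definitive endoderm, 11 had a mean under 0 in control and in both 4 h groups, and 11 and 9 at 8 h of BMH-21 and CX-5461. Their summed level was 9.64 to 10.97 in control, 10.1 to 12.7 at 8 h of BMH-21 and 12.9 to 14.3 at 8 h of CX-5461. Of the 7 tested genes of this list, 2 were called higher and 3 lower at both 4 h and 8 h of BMH-21. Over all genes, 22.1% and 44.9% were at 4 h, and 24.5% and 56.9% at 8 h. With CX-5461 it was 2 higher and 1 lower at 4 h (19.8% and 51.2% of all genes). At 8 h of CX-5461 it was 3 higher and 0 lower (35.1% and 14.3%). Single genes of that list moved more than its sum, and a pair of them is named here after their values were seen. Mesp1, a factor of early mesoderm, had a mean log2 value of -1.70 in control (11 to 20 reads), 1.22 and 1.65 at 4 h and 8 h of BMH-21, and 1.16 and -0.25 at those times of CX-5461. Its changes against control were 2.92, 3.34, 2.86 and 1.45 in that order, all called as deposited and after centring. Cxcr4, a chemokine receptor of definitive endoderm and mesoderm, went from -0.25 in control to 1.25 and 1.41 with BMH-21 and to 0.38 and 1.14 with CX-5461, also called at all 4. No control library of either gene reached a log2 value of 0 (highest -1.15 for Mesp1 and -0.07 for Cxcr4). Both thus passed the filter only through treated groups in which they were high, so their calls are given as a description. Mesp1 was highest in the groups in which Pdgfra was highest, at 4 h and 8 h of BMH-21 and 4 h of CX-5461. Kdr, of the same list, was lower than control in each of these groups, at 0.87, 0.64 and 0.78 against 1.75. Hand1, Gata4, Gata6, Sox17 and Pdgfra are also expressed in those tissues, and the part of such cells in their changes was not tested.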

How the data were processed

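The single table of the series held log2 expression of 20900 genes in 21 libraries. The authors deposited it after voom normalization, as its file name tells. The submitters' processing notes name mm10, Trim Galore 0.5.0, TopHat2 2.1.1 and limma 3.46.0. The counting program, its use of strand, the annotation and the filters are not given in the sources used here. All 21 columns were matched to samples by name, and 0 were left over. Each library gave whole reads, to within 1.7e-08, once its smallest value was taken as an offset of 0.5 reads. The scaling factors thus recovered ran from 0.8322 to 1.375, against 0.9414 to 1.107 for median-ratio factors of the same reads, and 3 reads were a log2 value of -4.63 to -3.59. Reads carry no molecular identifiers, so counting error is a lower limit. Replicate pairs differed by more than sampling noise (chi-square per degree of freedom 2.77 to 31.3).

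Groups were compared with limma 3.58.1 in R 4.3.3, which fitted the 7 group means to the deposited log2 values of every library; eBayes used a trend. There were 12 comparisons, two-sided, with Benjamini-Hochberg adjustment over the 14666 genes with a log2 value above 0 in at least 3 libraries. The offset understates changes of low genes. The variance prior had 111.5 degrees of freedom against 14 from the replicates, and 8.53 after centring. Replicate numbers did not pair the samples: deviations of same-numbered libraries correlated at -0.25 to 0.11.

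The 10 genes and the gene lists were chosen with earlier results of these data known. Named were the 10 genes, all upstream genes, the 2 largest called changes each way without overlap in each lineage list at 8 h, and the 3 genes most like each tested gene. Exon lengths and positions came from GENCODE M21 and promoters from RefSeq. The script was tested on simulated reads. Alternatives were centring, median-ratio factors, other filters, an offset of 5 reads, voom weights, fits of only the groups compared, a replicate block and leaving out each library; a fit with each gene's own variance was added after seeing the data. Figures were drawn with matplotlib 3.10.9.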

Additional observations from a re-analysis of the deposited data

Results flagged for a closer look

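The change from 4 h to 8 h was called different between BMH-21 and CX-5461 for 2 of the 9 tested genes, by the interaction term of the limma fit. Of all genes, 69.4% were called there. After centring it was 5 genes, beside 60.2% of all genes. Sox7 differed by -2.23 (SE 0.25, limma adjusted p 1.7e-13), with -0.67 under BMH-21 and 1.56 under CX-5461, and the 3 libraries of 8 h lay on opposite sides of those of 4 h with each inhibitor. Pdgfra differed by 0.50 (SE 0.20, limma adjusted p 0.023), with -0.34 under BMH-21 and -0.85 under CX-5461. The Pdgfra call was lost as deposited in some fits that left out 1 library, as given above.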

How the results depend on the processing

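The replicate block changed no call and left every count as it was (5, 6 and 8 genes at 2, 4 and 8 h of BMH-21, and 3, 7 and 5 in CX-5461). The labels tie the numbers to no shared source, and 4 of 21 libraries correlated best with their own number. The filter at a log2 value above 2 took out low genes, so that BMH-21 counts fell to 3, 2 and 4 at 2, 4 and 8 h, and CX-5461 counts to 3 at 4 h, to 3 at 8 h, to 2 between inhibitors at 8 h and to 4 for CX-5461 from 4 h to 8 h. The 2 h CX-5461 count was 1 with no filter and 1 with voom weights. With each gene's own variance the 2 h count between inhibitors was 0. For the interaction the count was 5 after centring, 6 with median-ratio factors, 1 with no filter and 1 with own variance.

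Leaving out 1 library gave 3 to 6 genes at 2 h of BMH-21, 0 to 2 at 2 h of CX-5461, 0 to 2 between inhibitors at 2 h and 1 to 2 for the interaction. Signs turned in these fits for small changes that were not called. Against control the ranges were -0.20 to 0.30 for Cdx2 and -0.32 to 0.14 for Sox17 at 2 h of BMH-21, -0.017 to 0.43 for Sox17 at 8 h of BMH-21, and -0.37 to 0.049 for Cdx2 and -0.27 to 0.091 for Sox7 at 2 h of CX-5461. Between inhibitors at 2 h they were -0.021 to 0.39 for Cdx2, -0.33 to 0.026 for Gata3, -0.00362 to 0.12 for Tfap2c and -0.092 to 0.14 for Hand1. At 8 h they were -0.082 to 0.21 for Cdx2, -0.055 to 0.12 for Tfap2c, -0.12 to 0.014 for Gata6 and -0.20 to 0.051 for Sox17. Gata4 from 4 h to 8 h of BMH-21 ran from -0.061 to 0.23, and for the interaction Hand1 ran from -0.045 to 0.16 and Gata6 from -0.063 to 0.071.

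Signs that turned with the scaling are given after centring and then with median-ratio factors, and the cause was not tested. Sox17 at 2 h of BMH-21 became 0.049 and 0.057, Cdx2 at 2 h of CX-5461 0.056 and 0.092, and Sox7 there 0.092 and 0.13. Between inhibitors Tfap2c at 2 h became -0.027 and -0.056, Hand1 at 2 h -0.035 and -0.064, Gata6 at 8 h 0.36 and 0.41, and Sox17 at 8 h 0.34 and 0.38. From 4 h to 8 h of CX-5461 Gata4 became -0.11 and -0.099 and Gata6 -0.14 and -0.13. For the interaction Tfap2c became 0.32 and 0.42, Gata4 0.22 and 0.32, Gata6 0.43 and 0.53 and Sox17 0.10 and 0.21. With median-ratio factors alone, Gata3 turned to 0.034 at 4 h of CX-5461 and to 0.040 for the interaction, and Gata4 to 0.014 between inhibitors at 8 h, and Cdx2 was called for the interaction (0.91). Depth was low for Cdx2, Elf5, Gata3 and Sox17, with 13 to 191, 14 to 50, 24 to 185 and 31 to 86 reads per library.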

Other observations

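Other genes of the lineage lists, chosen after their values were seen, moved with or against the 10. Gcm1, a factor of syncytiotrophoblast, rose by 1.98 at 8 h of BMH-21 and by 1.51 at 8 h of CX-5461, and Cdh3, a placental cadherin, by 1.36 with each. Hnf4a, a factor of visceral endoderm and liver, rose by 1.13 and 1.21. All 6 of these were called, and they stayed above 0 after centring, at 2.19, 1.29, 1.57, 1.15, 1.34 and 1.00.

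Eomes, which keeps trophoblast stem cells and later acts in mesoderm, was called in opposite directions at 8 h, at -1.10 with BMH-21 and 0.87 with CX-5461 (-0.88 and 0.65 after centring). Its 4 h values were -1.13 and -1.05. Cubn, an endocytic receptor of visceral endoderm and a partner of Lrp2, rose by 1.5 with BMH-21 at 8 h (0.32 with CX-5461, and 0.10 and not called after centring), while Lrp2 changed by -1.23.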
